A study of Mus musculus with 3 samples.

Results

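Neutrophils carry antimicrobial proteins in granules that are filled in a fixed order while the cell matures in bone marrow. Primary (azurophil) granule proteins are made at the promyelocyte stage, and secondary (specific) granule proteins are made later, at the myelocyte and metamyelocyte stages. The transcription factor C/EBPε, encoded by Cebpe, is required for the secondary set, while PU.1 and other C/EBP factors act on the primary set. Transcripts of both sets are found mainly in developing cells, so their relative amounts follow maturation stage as well as cell number.

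The 10 genes described here are 4 primary granule genes (Mpo, Elane, Prtn3 and Ctsg), 5 secondary granule genes (Ltf, Camp, Ngp, Lcn2 and Chil3) and Cebpe. They were taken by symbol from 35019 genes on the array, with earlier results of these data known, and 12 of 55681 array features measure them. Mpo and Camp have 2 features each and every other gene has 1. Chil3 is listed in the files under its older symbol Chi3l3.

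The RNA came from posterior frontal sutures of C57BL/6 mice, the fibrous midline joint between the growing frontal bones. The 3 groups were Runx2+/+ (wild type) at postnatal day 5 (P5), Runx2+/+ at day 7 (P7) and Runx2+/- at P7, with 1 single-colour Agilent array per group. Bone-forming cells require the transcription factor Runx2, and Runx2+/- mice keep 1 intact copy. The labels do not give the number of mice behind an array, the structure of the mutant allele or the cells it is active in, so a group stands for 1 hybridised sample.

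With 1 array a group there is no replicate check, no test was possible, and each difference compares 2 samples and not 2 conditions. The error that can be measured is technical. Each granule feature was spotted once, and probes spotted many times gave an SD of a log2 difference between arrays of 0.25 for age, 0.22 for genotype and 0.20 for the Runx2+/- array against the P5 array. Probes of 1 gene that differ in sequence varied more, with SDs of 0.46, 0.56 and 0.69 for these comparisons, and differences below that size are not distinguished here from probe error. The share of features well above background was 40.1% on the P5 array, 29.2% on that of P7 wild type and 47.3% in Runx2+/-. In the scanner software's own quality summary the day-7 wild-type array is set down for evaluation and the other two are in range, and that array enters both the age and the genotype comparison. Runx2 itself read 271, 62.4 and 262 signal units on the 3 arrays in that order, and its scaled log2 difference was -0.99 for age and -0.45 for genotype. Of the markers used to check the tissue label, 6 of 6 osteoblast genes and 5 of 6 suture mesenchyme genes were well above background on every array.

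Each value of a gene rests on 1 stretch of 60 bases, and those of Prtn3, Ltf and Ngp are shown to make clear what was measured. The Mpo feature shown is the dimmer of its pair, a second reading of the gene, while the values of Mpo rest on the brighter one. The Prtn3 and Ngp features each cross at least 1 intron, since they span 817 and 549 bases of the genome.
Mpo: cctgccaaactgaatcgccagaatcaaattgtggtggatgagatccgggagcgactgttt
Prtn3: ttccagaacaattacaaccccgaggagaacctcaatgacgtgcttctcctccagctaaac
Ltf: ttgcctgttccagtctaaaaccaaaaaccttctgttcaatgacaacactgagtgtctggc
Ngp: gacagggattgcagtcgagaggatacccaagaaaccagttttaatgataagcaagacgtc
Their positions in the files, on build mm9 and the plus strand, are chr11:87615121-87615180 for Mpo, chr10:79343869-79344685 for Prtn3, chr9:110942873-110942932 for Ltf and chr9:110324266-110324814 for Ngp. All 4 sequences read through in at least 1 forward frame without a stop codon. The features used for Mpo, Elane, Chil3 and Cebpe hold AATAAA, the letters of the polyadenylation signal. The other features lie at chr11:87617840-87617899 (Mpo, brighter), chr10:79350902-79350961 (Elane), chr14:56718795-56718854 (Ctsg), chr9:109749911-109749970 and chr9:109749901-109749950 (Camp), chr2:32240199-32240258 (Lcn2), chr3:105950485-105950544 (Chil3) and chr14:55329200-55329259 (Cebpe). Those of Ctsg, Camp, Lcn2, Chil3 and Cebpe are on the minus strand. The exon of each feature was not looked up, as no annotation of mm9 was used here.

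The letters just before the start sites were searched for motifs of the factors named above. The 60-base windows below come from the RefSeq promoters of GRCm38.p6 and are shown to set the matches of primary genes beside those of secondary genes. Capitals mark every AGGAAGT, which contains the GGAA core of ETS factors such as PU.1, and every TTNNGNAA, a C/EBP-type motif, on either strand. The match in the 4 primary genes is AGGAAGT and that in Ltf, Ngp and Lcn2 is TTNNGNAA. Chil3 has both kinds, with AGGAAGT on the opposite strand at the start of its window followed directly by the first of its TTNNGNAA matches.
Mpo: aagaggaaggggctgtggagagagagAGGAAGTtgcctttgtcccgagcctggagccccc
Elane: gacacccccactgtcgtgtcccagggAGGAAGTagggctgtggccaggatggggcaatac
Prtn3: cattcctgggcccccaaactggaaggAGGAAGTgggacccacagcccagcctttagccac
Ctsg: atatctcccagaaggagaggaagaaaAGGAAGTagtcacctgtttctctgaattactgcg
Ltf: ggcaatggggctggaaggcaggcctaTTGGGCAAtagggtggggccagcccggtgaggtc
Ngp: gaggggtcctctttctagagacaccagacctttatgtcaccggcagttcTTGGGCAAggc
Lcn2: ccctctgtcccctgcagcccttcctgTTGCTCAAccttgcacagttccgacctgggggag
Chil3: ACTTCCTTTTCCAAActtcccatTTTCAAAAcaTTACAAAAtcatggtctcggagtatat

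These windows lie on GRCm38.p6 at chr11:87793535-87793594 (plus strand) for Mpo, chr10:79886202-79886261 (plus) for Elane and chr10:79879547-79879606 (plus) for Prtn3. The Ctsg window is chr14:56102747-56102806 (minus), that of Ltf is chr9:111019191-111019250 (plus) and that of Ngp is chr9:110419748-110419807 (plus). The Lcn2 window is chr2:32387922-32387981 (minus) and the Chil3 window is chr3:106167565-106167624 (minus). Within 250 bases before the start, on both strands, AGGAAGT was found in 4 of 4 primary genes, in 1 of 5 secondary genes (Chil3) and in 7.69% of 32851 RefSeq promoters. TTNNGNAA was found in 0 of 4 primary genes, in 4 of 5 secondary genes (not Camp) and in 36.8% of all promoters. GAGGAA, the PU box, was found in 4 of 4 primary genes, in 2 of 5 secondary genes (Ltf and Lcn2) and in 23.3% of all promoters, and it overlaps AGGAAGT in Mpo, Elane and Prtn3. The 32851 promoters counted leave out 1 chromosome and entries of unlike length. Every entry of a gene counts there, whereas a member was read at its first entry. AGGAAGT was chosen after the promoters had been read, RefSeq gave a promoter for 9 of the 10 genes, and these matches are a description of letters and not of binding.

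The secondary granule genes were the group with the large differences. All 5 were lower on the day-7 wild-type array than on the P5 wild-type array, and all 5 were higher on the P7 Runx2+/- array than on the day-7 wild-type array. Ltf, which encodes the iron-binding protein lactoferrin, read 1598 ± 160, 32.3 ± 4.49 and 2186 ± 219 signal units at P5, at P7 in wild type and at P7 in Runx2+/-, where the error is the scanner software's own for 1 spot. Ngp, a granule protein related to cathelicidins, read 1309 ± 131, 31.4 ± 4.57 and 1557 ± 156 units in the same order. The day-7 wild-type array was the low one for both genes, by far more than these errors.

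Camp, which encodes the cathelicidin antimicrobial peptide, read 1954 ± 195, 90.0 ± 9.5 and 6344 ± 634 units. Its other feature shares 40 bases with the first and read 920 ± 92.1, 40.5 ± 5.18 and 3175 ± 318 units, so the pair is no independent repeat. Camp was low on the day-7 wild-type array at either feature. Lcn2, a lipocalin that binds bacterial siderophores, read 2788 ± 279, 90.4 ± 9.64 and 2509 ± 251 units. Chil3, a chitinase-like protein also called Ym1, read 182 ± 18.4, 32.6 ± 4.53 and 1332 ± 133 units. Both were lowest on the day-7 wild-type array, and how the other two arrays compare is given after scaling.

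Raw signals follow each array's overall brightness, so differences were taken after scaling each array to the 75th percentile of the 15858 probes detected on all 3, which stood at 491, 224 and 1292 signal units. On that scale the log2 levels of Ltf were 1.70, -2.80 and 0.76, those of Ngp 1.41, -2.84 and 0.27, and those of Camp 1.99, -1.32 and 2.30. The levels of Lcn2 were 2.51, -1.31 and 0.96, and those of Chil3 were -1.44, -2.78 and 0.04. By rank among all features, Ltf, Camp, Ngp and Lcn2 lay above 96.2% to 97.6% of features at P5 and above 78.3% to 87.4% on the day-7 wild-type array. Levels of different genes come from different probes and are not compared.

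Of the primary granule genes, Mpo and Elane were measured on all 3 arrays, differed less between them and did not move together. Mpo, the peroxidase that makes hypochlorous acid, read 222 ± 22.3, 55.7 ± 6.25 and 468 ± 46.9 units at its brighter feature, the one used, at P5, at P7 in wild type and at P7 in Runx2+/-. Elane, neutrophil elastase, read 126 ± 13.0, 91.7 ± 9.83 and 229 ± 23.1 units. In scaled log2 levels Mpo stood at -1.15, -2.01 and -1.46 and was lowest on the day-7 wild-type array, while Elane stood at -1.96, -1.29 and -2.50 and was highest there.

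Ctsg, the serine protease cathepsin G, read 83.6 ± 8.84 and 113 ± 11.7 units on the P5 and Runx2+/- arrays and 14.6 ± 3.43 units, not well above background, on the day-7 wild-type array. Prtn3, proteinase 3, read 17.6 ± 3.33 and 23.1 ± 3.85 units on those arrays and 3.21 ± 3.23 units, not well above background, on the day-7 wild-type array. The dimmer Mpo feature behaved alike, with 18.3 ± 3.16, 4.62 ± 3.08 (not well above background) and 40.2 ± 4.83 units. On the day-7 wild-type array these features thus have only an upper limit. The Prtn3 and Elane features lie 6216 bases apart on chromosome 10 (mm9), yet Elane was detected on all 3 arrays.

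Cebpe read 147 ± 15.0 units on the P5 array, 14.5 ± 3.74 units, not well above background, on the day-7 wild-type array and 251 ± 25.3 units in Runx2+/-. It was therefore low on the same array as the secondary granule genes. Its scaled log2 level was -1.74 at P5 and -2.36 on the Runx2+/- array.

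**Figure D1:**
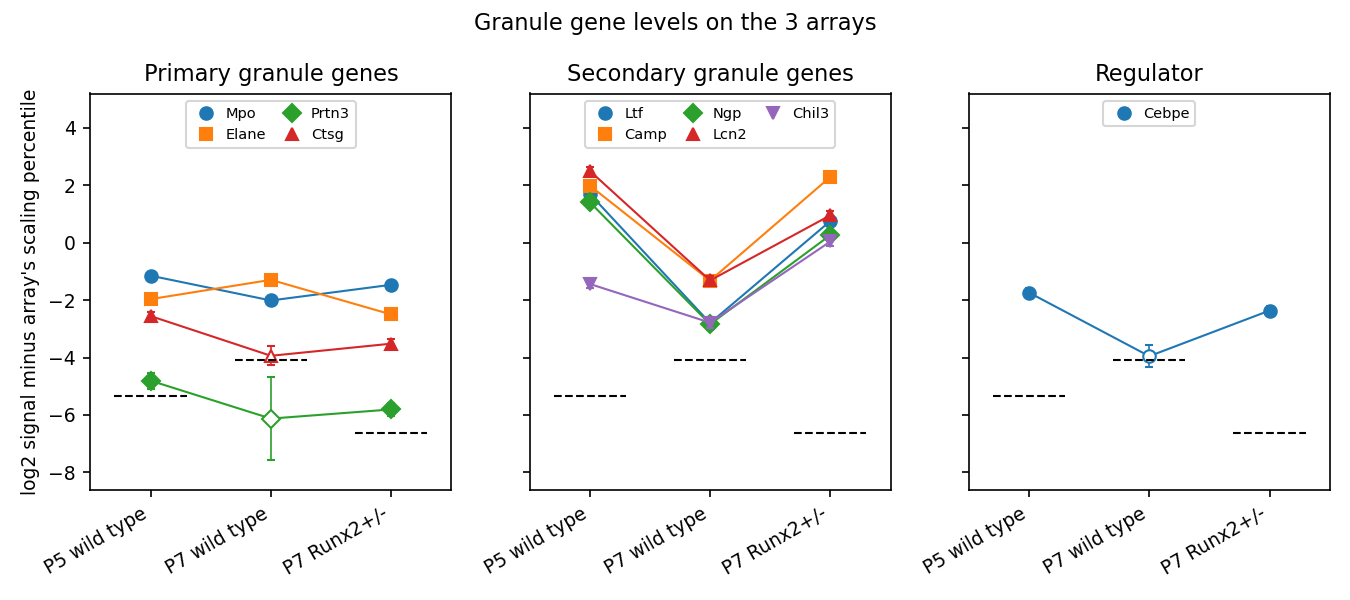
Scaled log2 signal (vertical axis, log2 units relative to each array's scaling percentile) of the 10 genes on the 3 arrays (horizontal axis), in panels for primary granule genes, secondary granule genes and Cebpe. Points are single spots with the scanner software's error, open points were not well above background, and dashed lines mark each array's floor. All 5 secondary genes dip on the day-7 wild-type array, whereas Elane peaks there.

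The comparison of P7 with P5 in wild type asks how the suture changes over these days of postnatal growth. Ltf was 22.6-fold lower at P7 (log2 difference -4.50), Ngp 19.1-fold lower (-4.25), Lcn2 14.1-fold lower (-3.82) and Camp 9.93-fold lower (-3.31). Chil3 was 2.55-fold lower (-1.35). Among the primary genes Mpo was 1.82-fold lower (-0.86) and Elane was 1.59-fold higher (0.67). Ctsg was at least 2.61-fold lower and Cebpe at least 4.65-fold lower, where "at least" means that the P7 wild-type value was not above background. Prtn3 had no order, because its P5 level lay below the P7 array's floor.

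A difference of at least 2-fold was thus found, downward, in 5 of 5 secondary genes, in 1 of 4 primary genes (Ctsg) and in Cebpe, and in no member upward. Over all 14453 genes with an order in this comparison, 3.96% passed the same threshold downward and 5.38% upward. The median log2 difference was -3.82 over the 5 secondary genes and -0.86 over the 3 primary genes with an order, against -0.04 over all genes with an order. With normexp background correction the primary median turned to 0.18, and 4 members in place of 7 passed the threshold. Chil3 (-0.43) and Cebpe (-0.48) no longer passed it and Ctsg had no order, which leaves 4 of 5 secondary genes, 0 of 4 primary genes and no call for Cebpe. Counted from the lowest of the 14453 genes, Ltf ranked 1, Ngp 2, Lcn2 7, Camp 22, Cebpe 49, Ctsg 200, Chil3 214 and Mpo 878.

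The room for a fall differed between genes. From its P5 level, Mpo could have been lower by 2.93 log2 units before reaching the P7 wild-type floor, Elane by 2.11, Ctsg by 1.52 and Cebpe by 2.34. Among the secondary genes Ltf, Camp, Ngp and Lcn2 had room for 5.49 to 6.58, but Chil3, which had the smallest difference of the 5, for 2.64, less than Mpo. Prtn3 had none. The smaller differences of Mpo and Elane are measured values, above the floor. A difference as large as that of Ltf could not have been seen for Mpo, Elane, Ctsg, Prtn3, Chil3 or Cebpe.

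**Figure D2:**
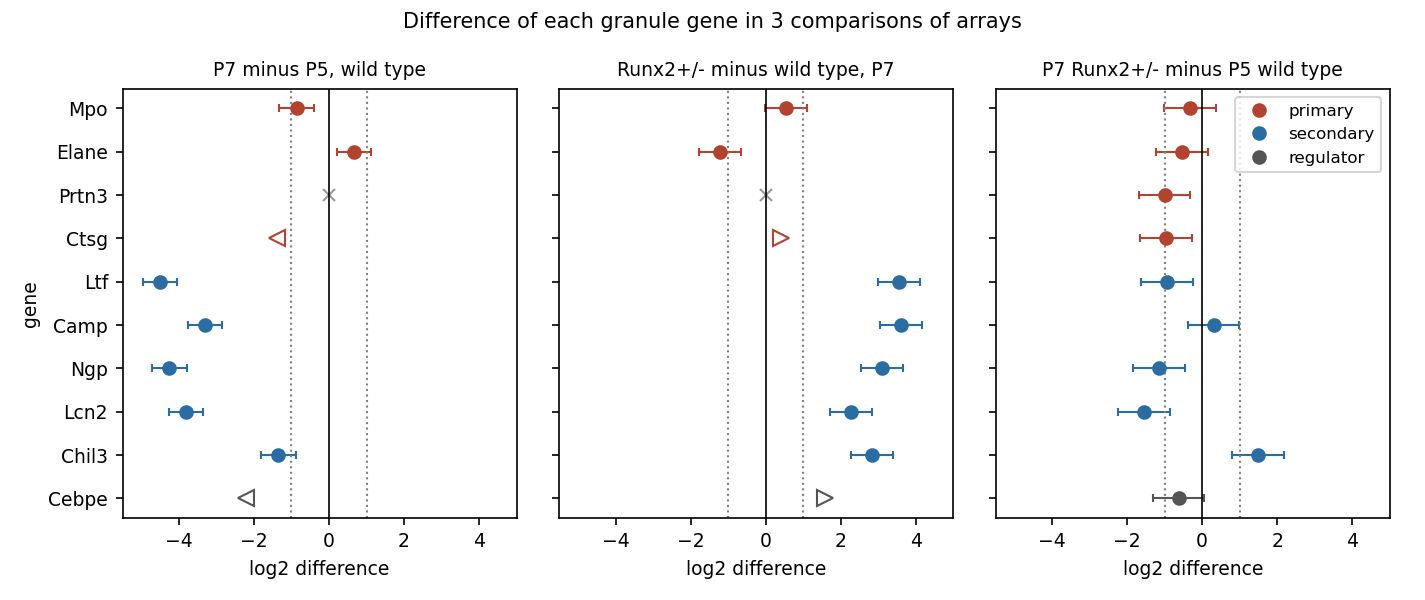
Log2 difference (horizontal axis) of each gene (vertical axis) in the 3 comparisons of arrays. Filled points are measured on both arrays, with bars of 1 SD between probes of a gene in that comparison; open triangles are lower limits of the size, crosses have no order, and dotted lines mark 2-fold. The secondary genes lie at -4.50 to -1.35 for age and at 2.27 to 3.61 for genotype, and Mpo and Elane lie on opposite sides of 0 in both.

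The comparison of Runx2+/- with wild type at P7 asks what the loss of 1 Runx2 copy changes. Camp was 12.2-fold higher in the Runx2+/- sample (log2 difference 3.61), Ltf 11.8-fold (3.56), Ngp 8.62-fold (3.11), Chil3 7.10-fold (2.83) and Lcn2 4.82-fold (2.27). The overlapping Camp feature gave 13.6-fold. Mpo was 1.46-fold higher (0.55), less than the SD between probes, and Elane was 2.31-fold lower (-1.21). Ctsg was at least 1.34-fold higher and Cebpe at least 3.01-fold higher, and Prtn3 again had no order.

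At least 2-fold higher were thus 5 of 5 secondary genes, 0 of 4 primary genes and Cebpe, though Cebpe had no order with normexp. Elane was the 1 member that passed this threshold downward. From their Runx2+/- levels of -3.52 and -5.81, Ctsg and Prtn3 could not have passed it upward, given the day-7 wild-type floor of -4.08. For the primary set the upward count thus rests on Mpo and Elane. The 14303 genes with an order passed the threshold upward in 3.94% and downward in 14.9% of cases. The median was 3.11 over the secondary genes and 0.42 or above over the 3 primary genes with an order, against 0.07 over all genes with an order. The sign of the primary median does not hold, as it was -0.68 with normexp background correction, -0.19 with the mean over probes and -0.33 over the genes detected on all 3 arrays, Mpo and Elane. Counted from the highest of the 14303 genes, Camp ranked 1, Ltf 2, Ngp 3, Chil3 5, Lcn2 18, Cebpe 79, Mpo 2577 and Ctsg 3555. Since the day-7 wild-type array is in both comparisons, a value that is low on that array alone is lower by age and higher by genotype, and the pair is not 2 separate findings.

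**Figure D3:**
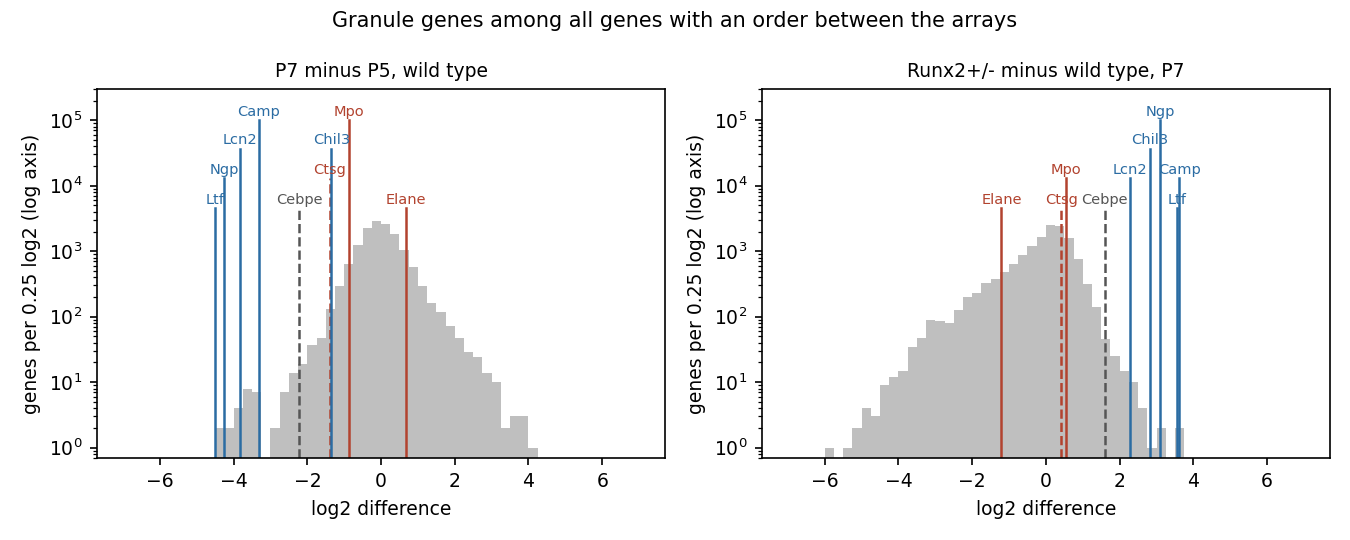
Number of genes per 0.25 log2 units (vertical axis, log scale) against the log2 difference (horizontal axis) for all genes with an order, 14453 for age and 14303 for genotype. Coloured lines mark the granule genes, dashed where the value is a limit, and their heights serve the labels only. Ltf and Ngp stand at the lowest edge for age, and Camp and Ltf at the highest edge for genotype.

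Ratios between granule genes on the same pair of arrays do not depend on the factor by which an array is scaled. Against Mpo, Ltf was 12.4-fold lower at P7 than at P5, Ngp 10.5-fold, Lcn2 7.75-fold, Camp 5.45-fold and Chil3 1.40-fold, while Elane was 2.90-fold higher. The primary gene Ctsg was at least 1.43-fold lower against Mpo, so the primary and secondary sets overlap at Ctsg and Chil3. Against Mpo in the genotype comparison, Camp was 8.38-fold higher in the Runx2+/- sample, Ltf 8.05-fold, Ngp 5.90-fold, Chil3 4.86-fold and Lcn2 3.30-fold, while Elane was 3.37-fold lower. Mpo and the secondary genes were therefore not scaled by a single factor, except that Chil3 lay close to Mpo for age. The primary pair Mpo and Elane did not share one either. In bulk tissue, fewer neutrophil precursors and less RNA per cell cannot be told apart.

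Setting the Runx2+/- array at P7 against the P5 wild-type array leaves out the day-7 wild-type array, but mixes age with genotype. Here the primary and secondary sets were close, with medians of -0.75 over 4 primary and -0.94 over 5 secondary genes, against -0.03 over all genes with an order. Mpo was 1.25-fold lower on the Runx2+/- array, Elane 1.45-fold, Ctsg 1.95-fold and Prtn3 2.0-fold. The dimmer Mpo feature, detected on both arrays, gave 1.2-fold lower. All 4 primary genes were lower, those of Mpo and Elane by less than the SD between probes.

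The secondary genes differed among themselves in this comparison. Lcn2 was 2.92-fold lower on the Runx2+/- array (log2 difference -1.55), Ngp 2.21-fold lower (-1.15) and Ltf 1.92-fold lower (-0.94). Camp was 1.23-fold higher (0.30) and Chil3 2.79-fold higher (1.48). Cebpe was 1.54-fold lower (-0.63). Past the threshold downward were Prtn3, Ngp and Lcn2, 3 of 10 members, beside 18.6% of the 17949 genes with an order, and Prtn3 lies at the threshold itself. Chil3 was the 1 member at least 2-fold higher, beside 5.69% of genes. Beside these backgrounds the counts show nothing about the granule genes as a set. Lcn2 at -1.55 and Chil3 at 1.48 each lie farther from 0 than the SD between probes of 0.69.

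Other granule genes, from lists written out for this comparison, were measured too. Limits enter a median at their bound, so a median that rests on them gives the least size. The counts of each list are to be read beside the shares over all genes with an order. For age 3.96% were at least 2-fold lower and 5.38% higher, and for genotype 14.9% were lower and 3.94% higher. Of 10 other primary granule and promyelocyte genes, 5 had an order for age, with a median of -0.86, and 2 were at least 2-fold lower. These were Srgn, the granule proteoglycan serglycin (-1.08), and Serpinb1a, an inhibitor of granule proteases (-1.18). The others with an order were Ctsc, Hexa and Gusb. Prss57, Ms4a3, Cst7, Fcnb and Myb were not above background on the day-7 wild-type array and had no order for age. The age median therefore says nothing about them. For genotype 6 had an order, with a median of 0.64 or above, and Serpinb1a (1.89) was the 1 gene at least 2-fold higher. Of 14 other secondary and tertiary granule genes, 13 had an order for age, 5 of them as limits, with a median of -0.82 or below, and 6 were at least 2-fold lower. Slpi, a protease inhibitor, stood at -4.18, Hp, haptoglobin, at -3.33, and Mmp8, neutrophil collagenase, at -3.43 or below. Mmp9, a gelatinase of tertiary granules that osteoclasts also make, stood at 0.66.

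For genotype 10 of these 14 genes had an order, with a median of 1.06 or above, of which 5 were at least 2-fold higher and 2 at least 2-fold lower. Slpi stood at 2.16, Hp at 1.70 and Mmp8 at 0.95 or above, while Mmp9 stood at -2.82. Itgam, the other gene at least 2-fold lower, stood at -0.20 for age and -2.11 for genotype. The 10 regulators of granulocyte formation had a median of -0.32 for age over 6 with an order and 0.34 for genotype over 7, and 0 and 1 of them respectively were 2-fold apart. Cebpe, at -2.22 or below for age and 1.59 or above for genotype, lay farther from 0 than these medians. With normexp background correction it stood at -0.48 for age and had no order for genotype. Regulators without an order do not enter these medians.

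Most markers of mature neutrophils with an order were low on the same array as the secondary granule genes, but not Trem1 and Csf3r. Of 12 such genes, 11 had an order for age, 5 of them as limits, with a median of -2.16 or below, and 9 were at least 2-fold lower and 0 higher. S100a8 and S100a9, the subunits of calprotectin, stood at -3.79 and -3.63, Retnlg at -3.96 and Stfa2l1 at -3.56. For genotype the median was 0.61 or above over 10, of which 4 were limits, with 4 at least 2-fold higher and 2 lower. S100a8, S100a9, Retnlg and Stfa2l1 stood at 2.12, 1.89, 0.92 and 1.88. The 2 lower genes were Trem1, at 0.76 for age and -1.47 for genotype, and Csf3r, at -0.20 and -1.06. The genes above background numbered 12 of 12 at P5, 6 on the day-7 wild-type array and 11 in Runx2+/-, beside 40.1%, 29.2% and 47.3% of all features. The day-7 wild-type array has the highest floor of the 3 (-4.08), so these counts alone cannot place the list low on it. On the Runx2+/- array against P5 wild type the median of these markers was -1.67, with 10 of 12 at least 2-fold lower, beside 18.6% of all genes with an order.

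Markers of other cells that can make these proteins were measured on the same arrays, and their part in the result was not tested. Macrophages can make Chil3, and of 12 monocyte and macrophage markers 11 had a probe, with medians of -0.15 for age and 0.39 or above for genotype over 10 with an order each. Cd68 stood at 1.14 for age and -1.18 for genotype, and Mrc1, a marker of alternatively activated macrophages, at 0.08 and 1.26. Mast cells make proteases related to cathepsin G, and of 8 mast cell genes 5 had an order for age with a median of 0.97 and 6 for genotype with a median of 0.61. Among them Cma1 stood at -0.72 and 1.94, Tpsb2 at 1.14 and -0.18, and Hdc at -1.14 and 0.32. Of 6 genes of epithelial and other sources of lipocalin and chitinase-like proteins, 3 were above background at P5, 0 on the day-7 wild-type array and 3 in Runx2+/-. Their differences were all limits, with a median of -2.01 or below for age over 3 genes and 0.59 or above for genotype over 2. Chil1, a chitinase-like gene, stood at -2.61 or below for age and Krt5, an epithelial keratin, at -2.01 or below. For genotype Chil1 stood at 0.52 or above, and Krt5 had no order, since its Runx2+/- level lay below the day-7 wild-type floor. That array has the highest floor of the 3, so the list as a whole cannot be placed low on it.

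Of 8 eosinophil and basophil genes, 3, 0 and 3 were above background on the 3 arrays, of which the day-7 wild-type array has the highest floor. Among them 1 had an order for age (-0.04). The 6 stem and progenitor genes had medians of -0.02 for age and 1.11 for genotype over 3 with an order each, and the 5 proliferation genes had medians of -0.32 and 0.19. B lineage genes had medians of -0.51 over 3 and 0.68 over 4 of 6, with the pre-B-cell gene Vpreb1 at -1.93 and 0.91. Erythroid genes had medians of -0.40 and -0.74 over 3 of 6. The osteoblast genes had medians of 0.49 and -1.96 over 6, the latter with 5 at least 2-fold lower, and the suture mesenchyme genes 0.75 and 0.03 over 5. Osteoblast genes were thus lower and secondary granule genes higher on the Runx2+/- array than on the day-7 wild-type array.

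**Figure D4:**
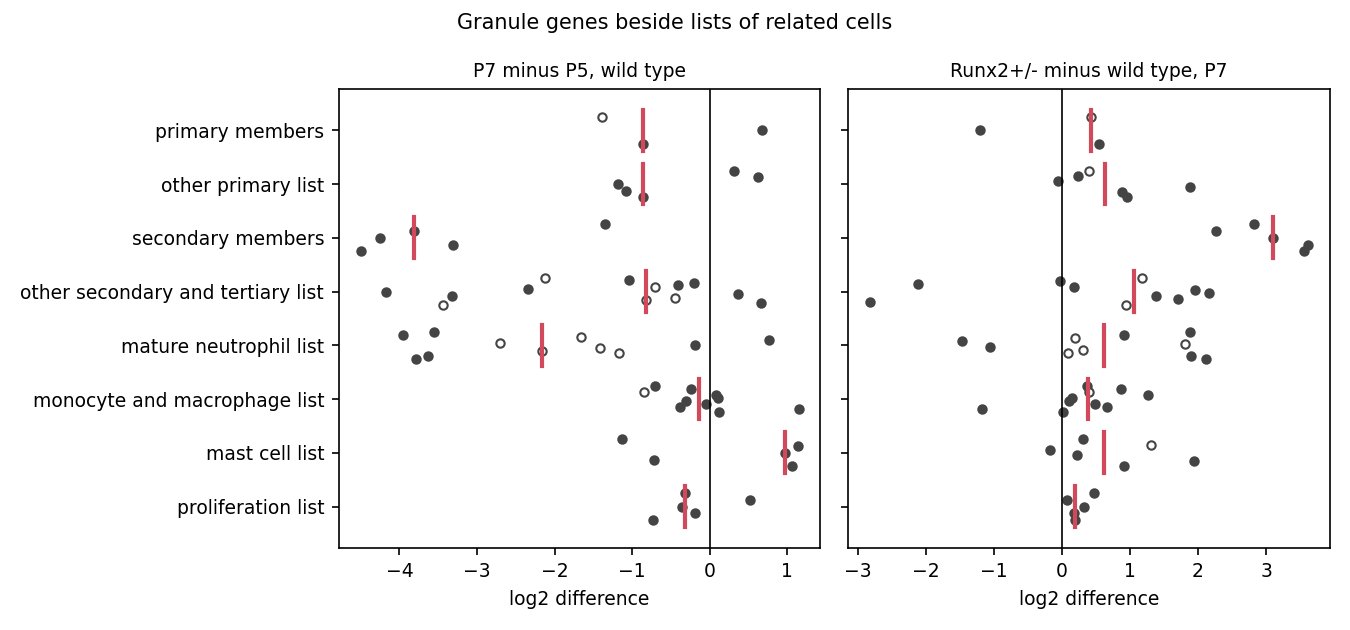
Log2 differences (horizontal axis) of single genes with an order (points, open where the value is a limit) in the primary and secondary sets and in 6 lists of related cells (vertical axis, points spread for legibility), with the median of each as a red bar. The secondary set has medians of -3.82 for age and 3.11 for genotype, and the mature neutrophil list -2.16 or below and 0.61 or above, since limits enter at their bound.

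The genes with the pattern most like the secondary median, list members included, were sought among 12074 genes above background on all 3 arrays, by distance over the age and genotype differences. They were S100a8 (-3.79 and 2.12, distance 0.99), Wfdc21 (-3.66 and 2.12, distance 1.0), Slpi (-4.18 and 2.16, distance 1.02) and Stfa3 (-3.50 and 2.14, distance 1.02), followed by a transcript without a gene name. All of them had a smaller genotype difference than the secondary median. The same measure around the primary genes rests on Mpo and Elane, whose mean lay at -0.10 and -0.33, and gave Tomm40l, Wrap53, Avpi1, Tgfbr1 and Dyrk1a, among the many genes with little difference.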

How the data were processed

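Per the labels' protocols, total suture RNA was amplified and Cy3-labelled, and each group has 1 array. The authors deposited scanner files made by Agilent Feature Extraction (10.7.1.1 in the file headers, but 9.5.1.1 per the submitters' processing notes), whose processed signal is a background-corrected intensity per spot, with an error and a background flag. They also deposited a table of intensity values used as an alternative, with no steps stated in the labels or headers. The arrays share 1 slide and 1 scan date.

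Control spots and outlier spots were left out, spots of a probe were averaged, and from each log2 value the log2 of the array's 75th percentile over the 15858 probes well above background on all 3 arrays was subtracted, since under 50% of probes were detected on each array. A probe not well above background was set to the array's lowest value that was, unless its own was higher. These floors were -5.36 log2 units at P5, -4.08 at P7 in wild type and -6.63 in Runx2+/-. A difference was taken where both arrays measured the gene, was a limit ("at least N-fold") where the higher array alone did, and otherwise had no order. The limit uses the deposited intensity of 1 spot. A gene was read from its brightest probe, and differences of at least 2-fold were counted. Counts over all genes use the whole array. The number of arrays and the signal over background limit the precision.

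RefSeq (GRCm38.p6) named 27235 probes, and 2838 got a newer symbol. The members and the 14 gene lists (115 entries) were chosen with earlier results of these data known. Named are all members, up to 4 members per list with the largest difference of at least 2-fold, and the 5 genes nearest to each median profile, not all of which are printed. Some further list genes are named because they went against their list or to show which genes had an order. Software was R 4.3.3, limma 3.58.1, Python 3.11.15, numpy 2.4.6 and pandas 2.3.3. The steps were tested on simulated data. Alternatives were other scalings, normexp (offset 50), the deposited table, other probe rules, no floor, a stricter filter, outlier spots kept, and thresholds of 1.5-fold and 3-fold.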

Additional observations from a re-analysis of the deposited data

How the results depend on the processing

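Under 11 alternatives to the processing, the secondary granule genes stayed lower at P7 (medians -3.82 to -2.92) and higher in Runx2+/- (1.91 to 3.18), and Elane kept its direction in both (0.67 to 0.75 and -1.40 to -1.13). Of 92 alternative values of medians and counts, 79 moved by less than the SD between probes, or by less than 1.5 times for counts, 9 moved more and 4 reversed. Of 191 values of single genes, 179, 11 and 1 did so. Part of these values could not move. A gene with 1 feature has the same value under every probe rule, and a gene measured on all arrays has the same value without a floor. A change of scaling factor alone cannot alter the secondary minus primary difference. Normexp moved the age differences of Ltf, Ngp, Lcn2, Camp, Chil3, Mpo and Cebpe, and the genotype differences of Ltf, Ngp and Chil3. All reversals concern the primary genes. With normexp background correction the primary median was 0.18 for age and -0.68 for genotype, the secondary median -2.92 and 1.91, and 4 members instead of 7 were at least 2-fold lower at P7, without Chil3, Cebpe and Ctsg. That correction moved the median of all measured genes by 0.24 for age and -0.43 for genotype. With the mean over probes the primary median was -0.10 and -0.19, and the secondary minus primary difference -3.72 and 3.30. In that setting Mpo stood at -0.19 for genotype, since its dimmer feature was at the day-7 wild-type floor. With genes above background on all arrays alone, which leaves Mpo and Elane, the primary median was -0.10 and -0.33 and the difference -3.72 and 3.44. The main values of that difference were -2.95 and 2.69. Counts over all genes moved by over 1.5 times in some settings. Genes lower by age numbered 573 in the main setting, 127 with normexp, 372 with the strict filter and 1646 without a floor, and genes higher by age 777, 495, 509 and 804. Genes higher by genotype numbered 563, 97, 412 and 1418, and genes lower by genotype 2125, 3452, 1852 and 2839. The share of calls that were higher was 57.6% for age and 20.9% for genotype, against 79.6% and 2.73% with normexp and 32.8% and 33.3% without a floor. For Runx2+/- at P7 against P5 wild type it was 23.4%, against 36.1% with the percentile over all probes, 37.4% with quantile normalization, 39.1% with the deposited table, 4.19% with normexp and 37.4% without a floor. The counts there were 1021 higher and 3334 lower, against 1573, 1452, 1784, 173 and 2013 higher in those settings, and 639 higher and 1871 lower with the strict filter. No cause of these changes was tested apart from those named. Log2 differences varied along transcripts with a median slope of 0.20 per kb for age, 0.14 for genotype and 0.37 for Runx2+/- at P7 against P5. The dimmest of 8 groups of probes by signal had a median difference of 0.36 for age and -0.69 for genotype, and the brightest -0.21 and -0.19. No paired analysis was possible because each group has 1 array.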
